A study of Mus musculus with 8 samples.

Results

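Vitamin A handling was examined in mouse brain through 9 genes, which on these arrays are read by 11 probes of the 39429 non-control probes: Rpe65, Rbp4, Stra6, Ttr, Aldh1a1, Aldh1a2, Crabp2, Cyp26b1 and Rarb. A probe was taken when the gene name given for it in the scanner files was one of these 9, and all 9 genes were found. The set was proposed with fasted against fed differences of the same arrays already known. Those differences are therefore given as values with their errors and without printed p-values, and nothing is supported with them. Where a member is said to be past the limma threshold, in the main fit or under an alternative, this only describes its values. It is no test of the member, and the same holds for its rank among all probes.

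One group of mice had been fasted for 17 h and the other fed, with 4 samples per group read on 8 single-colour arrays, 1 sample to an array. Strain, sex, age and the number of animals behind a sample are not given in the sources used here, and the spread between samples may be partly technical. All 8 samples are total RNA of brain labelled with Cy3. In such bulk RNA, fewer cells of a type and less RNA per cell cannot be told apart.

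Vitamin A circulates as retinol bound to retinol-binding protein, which travels with transthyretin, and enters cells through the receptor STRA6. Inside the cell retinol is oxidised to retinal and then, by retinaldehyde dehydrogenases, to retinoic acid, the ligand of the retinoic acid receptors, and CYP26 enzymes clear it. RPE65 belongs to a side branch known from the eye, where it regenerates the light-sensitive form of retinal. In brain, choroid plexus makes transthyretin, meninges and choroid plexus make retinoic acid, and striatal neurons carry the beta receptor.

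The regulatory sequence of most interest in the set is that of Rarb, since a classical retinoic acid response element lies just before its start. Windows reaching from 250 bases before to 50 bases after annotated starts were read from the RefSeq promoter table (build GRCm38.p6). Those searched here were 12 windows for 7 of the members. No window was found under the name Crabp2. None of Ttr was searched, which does not mean that the table holds none for it. The half-site word of retinoid receptors, AGGTCA, its variant AGTTCA, and, with another first letter, GGTTCA, were searched on both strands. They were searched singly and as direct repeats with 1, 2 or 5 bases between them. GGTTCA and AGTTCA are the words that make up the Rarb repeat, so its match was built into the choice of words. The related word GGGTCA was not searched. The 250 bases before the start are shown for Rarb (chr14:16575477-16575726, minus strand) and, as the member with the largest difference between the groups, for Rpe65 (chr3:159598931-159599180, plus strand), 5′ to 3′ along the gene, with matches in capitals.
Rarb: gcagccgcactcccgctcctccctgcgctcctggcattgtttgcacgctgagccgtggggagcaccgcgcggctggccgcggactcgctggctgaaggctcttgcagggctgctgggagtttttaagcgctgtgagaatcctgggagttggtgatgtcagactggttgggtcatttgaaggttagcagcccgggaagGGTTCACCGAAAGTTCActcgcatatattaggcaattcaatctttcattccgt
Rpe65: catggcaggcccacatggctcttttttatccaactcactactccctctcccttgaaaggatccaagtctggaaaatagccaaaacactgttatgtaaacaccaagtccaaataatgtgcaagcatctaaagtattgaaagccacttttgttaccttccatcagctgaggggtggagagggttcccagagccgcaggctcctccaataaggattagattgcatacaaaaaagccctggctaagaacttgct

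In Rarb the match is the direct repeat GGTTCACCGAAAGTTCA, 2 half-sites with 5 bases between them, from 53 to 37 bases before the start. Of 32851 windows of the table, 20 held such a repeat with a spacing of 5 (0.0609%), whereas a single half-site was found in 35% of them. This share describes the table and is no test of Rarb, because the words searched include those of its repeat. Besides Rarb, 1 of the 4 windows of Stra6 held a half-site, after the start. The words searched were not found in the windows of Rpe65, Rbp4, Aldh1a1, Aldh1a2 and Cyp26b1. The unsearched word GGGTCA is present before the start of Rarb. Its reverse complement is present in a window each of Rbp4 and Aldh1a1. A match describes the letters in the window only.

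All 11 probes passed the filter on dim spots, which asked for a signal well above background on at least 4 of the 8 arrays. For 10 of them this held on all 8 arrays, and the exception was a Rarb probe described with its gene below. Levels are given as scaled log2 signal, the log2 of the background-corrected intensity minus the array's 75th percentile, so that 0 is the brightness at that percentile. Values of different probes were not set against each other, because probes differ in their brightness for the same amount of RNA. In all 8 samples markers of neurons, astrocytes, oligodendrocytes and microglia were above background (9 of 9, 8 of 8, 9 of 9 and 9 of 9 genes).

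In fasted brain Rpe65 was lower by more than its spread, Aldh1a1 and Stra6 were somewhat higher, and Rbp4 was slightly higher (0.16). Ttr, Aldh1a2, Crabp2 and the brightest Rarb probe lay close to their fed levels. A second Rarb probe was slightly lower (-0.14). For Cyp26b1 and the dimmest Rarb probe the intervals were too wide to tell. Of the 11 probes, 3 were past an adjusted p of 0.05 in limma, 1 lower and 2 higher, where 16.9% of all 26066 probes tested were (8.55% lower and 8.4% higher). On 4 probes the fasted and fed arrays did not overlap, 1 lower and 3 higher, where this was seen on 24.8% of all probes tested. Both counts only describe the members, because the same contrast was known when they were chosen. The median difference of the 11 probes was -0.01 on the log2 scale, as it was over all probes tested.

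**Figure D1:**
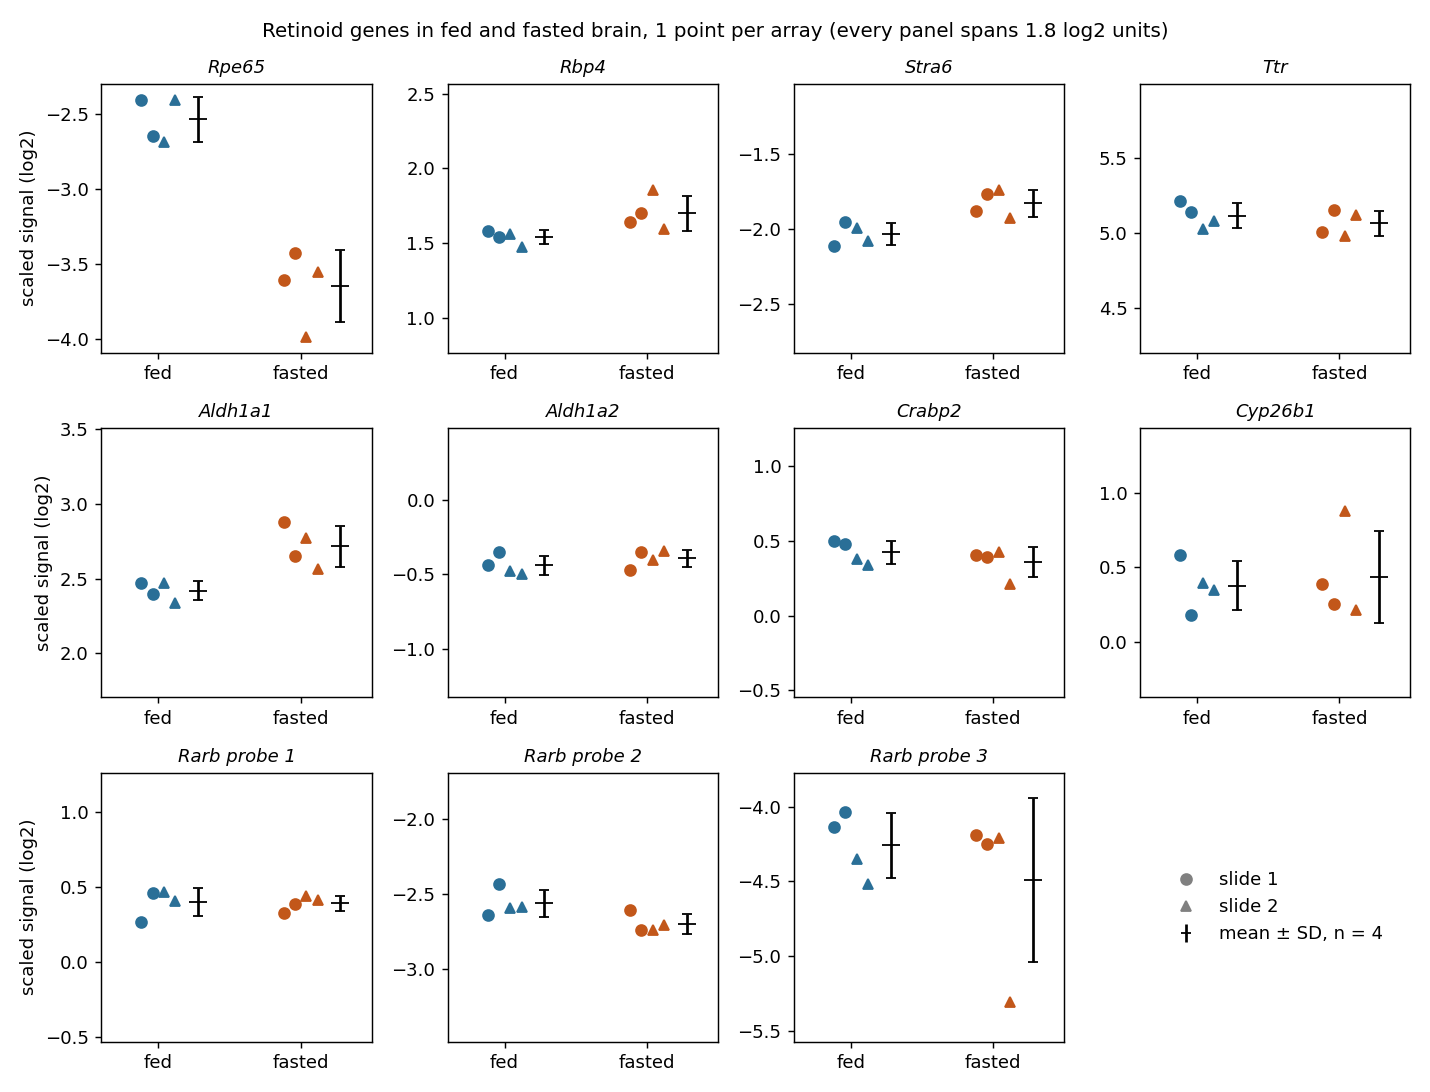
Scaled log2 signal of the 11 probes of the 9 retinoid genes in fed (blue) and fasted (orange) brain, 1 point per array, with the slide shown by the shape and the mean ± SD of 4 arrays beside the points. Rpe65 is low on all 4 fasted arrays, Aldh1a1, Stra6 and Rbp4 are slightly higher on them, and the groups overlap on the other panels.

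Rpe65 encodes the retinoid isomerohydrolase, the enzyme that turns all-trans retinyl esters into 11-cis retinol in the pigment epithelium of the eye. Its probe (NM_029987) maps to chromosome 3, bases 159287714 to 159287773, in mm9 coordinates, which the array's design uses throughout. The scaled log2 signal was -3.61, -3.43, -3.99 and -3.55 in fasted replicates 1 to 4 and -2.40, -2.65, -2.68 and -2.41 in fed replicates 1 to 4. All fasted arrays lay below all fed arrays, and fasted replicate 3 was the lowest. The difference was -1.11 ± 0.13 (log2, SE; 95% interval -1.40 to -0.82), or a level 2.16-fold lower in fasted brain (1.77 to 2.64).

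The difference was present on both slides, at -0.996 on slide 1 and -1.23 on slide 2. Of the 26066 probes tested, 9 had a lower difference. The probe is a dim one, with intensities of 121 to 159 in fasted and 263 to 337 in fed brain, and the background correction moved its size. With a normexp correction of the mean signal in place of the scanner's own, the difference was -0.73. Over the 17 alternative settings it lay between -1.18 and -0.73 and was past the threshold under each.

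Markers of the eye were read beside Rpe65, an eye gene. Of 13 genes of retinal pigment epithelium and pigment cells, 9 were measured. The retinyl ester synthase Lrat and the opsin Rgr, both of the visual cycle, as well as Best1 and Slc45a2 were below the detection filter. The summed linear signal of the measured markers, in units of each array's 75th percentile, was 2.70 to 2.93 in fasted and 2.98 to 3.35 in fed brain, without overlap. Of the 9, 1 fell, Rlbp1, which encodes the retinal-binding protein CRALBP and is also made by glia. With Rlbp1 left out, the sums were 2.31 to 2.50 in fasted and 2.44 to 2.74 in fed brain and overlapped.

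The pigment genes Tyrp1 and Pmel were above background on 6 and 5 of the 8 arrays, and Dct gave a difference of -0.31 with a limma adjusted p of 0.409. In the same list Oca2 (0.27) and Mitf (0.01) went the other way, without passing. The sum of that list weighs its brightest genes most, Mitf and Rdh5 (-0.13). Of 16 genes of photoreceptors and pineal gland, 7 were measured, and Pde6b and Crx were among those below the filter. Their sums were 2.72 to 3.01 in fasted and 2.77 to 3.16 in fed brain, with none past the threshold. Of 7 lens genes 4 were measured, with sums of 0.572 to 0.710 in fasted and 0.833 to 1.07 in fed brain. Among them Bfsp2, a lens filament protein, fell, with a difference of -0.94 ± 0.12 (SE; limma adjusted p = 0.00327). Without it the lens sums were 0.234 to 0.316 in fasted and 0.209 to 0.293 in fed brain. Cryaa (0.25) and Bfsp1 (0.23) of the lens list went the other way and Crygd gave -0.09, without passing. Of the oligodendrocyte and of the microglia markers, 4 of 9 fell in each list and 0 rose, where 8.96% of all genes fell. In the oligodendrocyte list Mobp (0.30) and Cldn11 (0.11) went the other way, without passing on the probe used. Another Mobp probe, at 0.30, did pass (limma adjusted p = 0.0264), and a further one gave 0.18 (0.194). In the other direction, another probe of Ermn, not called on the probe used, gave -0.26 (adjusted p = 0.00874). The part of these lists in the difference of Rpe65 was not tested.

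Transport proteins gave small differences. Rbp4, the plasma carrier of retinol (NM_001159487, chromosome 19 at 38191120 to 38191179 of mm9), had scaled log2 signals of 1.64, 1.70, 1.86 and 1.60 in the fasted replicates and 1.58, 1.54, 1.56 and 1.48 in the fed replicates. The lowest fasted array lay just above the highest fed array. The difference was 0.16 ± 0.06 (SE; 95% interval 0.02 to 0.30), with 0.11 on slide 1 and 0.21 on slide 2, and it was not past the threshold under any of the 17 alternatives. Fasted replicate 3 was the highest of the 8, and without it the difference was 0.11.

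Stra6, the cell-surface receptor that takes up retinol from its carrier (NM_001162476, chromosome 9 at 58001701 to 58001760), showed the same arrangement. Its values were -1.88, -1.76, -1.74 and -1.93 in fasted brain and -2.11, -1.95, -1.99 and -2.08 in fed brain. The groups did not overlap, although fasted replicate 4 and fed replicate 2 were only narrowly apart. The difference was 0.21 ± 0.06 (SE; 95% interval 0.08 to 0.34), a level 1.15-fold higher in fasted brain, with 0.21 on slide 1 and 0.20 on slide 2. It was past the threshold under 7 of the 17 alternatives, among them the replicate block but not the slide block, and under 1 of the 8 fits that left out an array.

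Ttr encodes transthyretin, which carries retinol-binding protein and thyroid hormone and is the most characteristic product of choroid plexus. Its signal was 5.01, 5.16, 4.98 and 5.12 in fasted and 5.22, 5.14, 5.02 and 5.08 in fed brain. The groups overlapped, the 8 arrays spanned 0.24 log2 units, and the difference was -0.05 ± 0.06 (SE; 95% interval -0.18 to 0.08). A change beyond 1.13-fold lower or 1.06-fold higher lies outside that interval. Choroid plexus markers, of which 19 of 20 were measured, summed to 35.2 to 37.3 in fasted and 34.9 to 38.7 in fed brain, and the groups overlapped. Most of that sum is the signal of 1 gene, Enpp2 (difference -0.03), so it says little of the others. The median difference of the 19 was 0.04. Of these 19, 1 rose (Clic6, a chloride channel protein, by 0.33 ± 0.06, SE; limma adjusted p = 0.00979) and 1 fell (Kcnj13, a potassium channel, -0.28 ± 0.05; adjusted p = 0.0137). With the replicate number as a block 3 fell, Kcnj13 together with Kcne2 (-0.27, adjusted p = 0.0332 in limma, 0.0751 without the block) and Sostdc1 (-0.25, 0.0463 and 0.0916).

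Retinoic acid synthesis is represented by a pair of retinaldehyde dehydrogenases. Aldh1a1 (NM_013467, chromosome 19 at 20717764 to 20717823), the form found in dopamine neurons of the midbrain, had values of 2.88, 2.65, 2.77 and 2.56 in fasted and 2.47, 2.40, 2.47 and 2.34 in fed brain. Every fasted array was above every fed array. The difference was 0.30 ± 0.07 (SE; 95% interval 0.14 to 0.46), which is 1.23-fold higher (1.098 to 1.375), with 0.33 on slide 1 and 0.26 on slide 2. It was past the threshold under 13 of 17 alternatives, including both blocks, but not without fasted replicate 3 or fed replicates 2 or 4, nor with all probes tested.

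Of 10 midbrain dopamine neuron markers 8 were measured, with sums of 11.2 to 12.1 in fasted and 11.5 to 13.0 in fed brain, which overlapped. Among them Ddc, which makes dopamine from its precursor, rose by 0.80 ± 0.08 (SE; limma adjusted p = 0.00154) and the transcription factor Nr4a2 fell by 0.35 on the log2 scale, while Th, the rate-limiting enzyme of dopamine synthesis, gave -0.18 ± 0.19 (adjusted p = 0.555). Aldh1a7, a close relative of Aldh1a1 on the same pathway list, fell, by 0.29 ± 0.08 on the log2 scale (SE; adjusted p = 0.0414). Whether either probe also reads the other gene was not tested.

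Aldh1a2 (NM_009022, chromosome 9 at 71143931 to 71143990), the retinoic acid-forming enzyme of the meninges, did not separate the groups. Its values were -0.47, -0.35, -0.40 and -0.35 in fasted and -0.44, -0.35, -0.48 and -0.50 in fed brain. The 8 arrays spanned 0.15 log2 units, the narrowest range of the 11 probes, and the difference was 0.05 ± 0.05 (SE; 95% interval -0.06 to 0.15). Its sign differed between the slides, at -0.02 on slide 1 and 0.11 on slide 2. Markers of meninges and fibroblasts, all 20 of them measured, summed to 106 to 119 in fasted and 109 to 118 in fed brain. Most of that sum is the signal of Ptgds (difference -0.03), and the median difference of the 20 was -0.001. Of the 20, 2 rose and 3 fell. Among them Foxc1, a transcription factor of meningeal development, rose by 0.42, and the matrix protein Lum fell by 0.44 on the log2 scale.

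Crabp2 carries retinoic acid to its nuclear receptors (NM_007759, chromosome 3 at 87757207 to 87757266). Its values were 0.41, 0.39, 0.43 and 0.21 in fasted and 0.50, 0.48, 0.38 and 0.34 in fed brain. The groups overlapped, and fasted replicate 4 stood below the other 3 fasted arrays. The difference was -0.07 ± 0.06 (SE; 95% interval -0.20 to 0.07), and without that array it was nearer to 0, at -0.02.

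Cyp26b1, the hydroxylase that degrades retinoic acid in brain (NM_175475, chromosome 6 at 84521952 to 84522011), varied more within groups than any other member apart from Rarb probe 3. It gave 0.39, 0.25, 0.88 and 0.22 in fasted and 0.58, 0.18, 0.39 and 0.35 in fed brain. The groups overlapped, and fasted replicate 3 was the highest array. The difference of 0.06 ± 0.15 (SE; 95% interval -0.29 to 0.41) became -0.09 without that array, and it was -0.06 on slide 1 and 0.18 on slide 2. At this spread a difference of 1.33-fold in fasted brain still lay within the interval.

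Rarb encodes the retinoic acid receptor beta and has 3 probes. It is known from other work to be induced by retinoic acid through the repeat shown above, which was not tested here. Only 1 window of Rarb was searched, and whether it belongs to the transcript read by probe 3 was not tested. Probe 1 (NM_011243, chromosome 14 at 17263367 to 17263426, minus strand) gave 0.32, 0.39, 0.44 and 0.42 in fasted and 0.27, 0.46, 0.47 and 0.41 in fed brain. The groups overlapped and their means were almost equal, with a difference of -0.01 ± 0.05 (SE; 95% interval -0.13 to 0.11). Probe 2, for the same transcript at 17264648 to 17264707, gave -2.61, -2.74, -2.74 and -2.71 in fasted and -2.64, -2.43, -2.60 and -2.59 in fed brain. Its fasted mean was lower but the groups overlapped, with a difference of -0.14 ± 0.06 (SE; 95% interval -0.26 to -0.01). It was not past the threshold under any of the 17 alternatives.

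Probe 3 was designed on the beta 1 isoform (X56569, chromosome 14 at 17651424 to 17651483). It read -4.19, -4.25, -4.21 and -5.31 in fasted and -4.14, -4.04, -4.35 and -4.52 in fed brain. Fasted replicate 4 and fed replicate 4 were not well above background, so these are near the limit of the array. The difference was -0.23 ± 0.26 (SE; 95% interval -0.82 to 0.36) and turned to 0.04 without fasted replicate 4. The 13 measured markers of striatal neurons, where Rarb is prominent, summed to 103 to 107 in fasted and 100.2 to 102 in fed brain, without overlap. Such a sum weighs the brightest genes most, here Penk (0.11), and the median difference of the 13 was only 0.01. Penk and Tac1 were higher on all fasted arrays, whereas Drd2, Rgs9, Gpr6 and Rxrg were lower on all of them. The rest of the list overlapped between the groups. Of these 13, 1 rose (Tac1, the precursor of substance P, by 0.20) and 1 fell (Rxrg). What this has to do with the Rarb values was not tested.

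**Figure D2:**
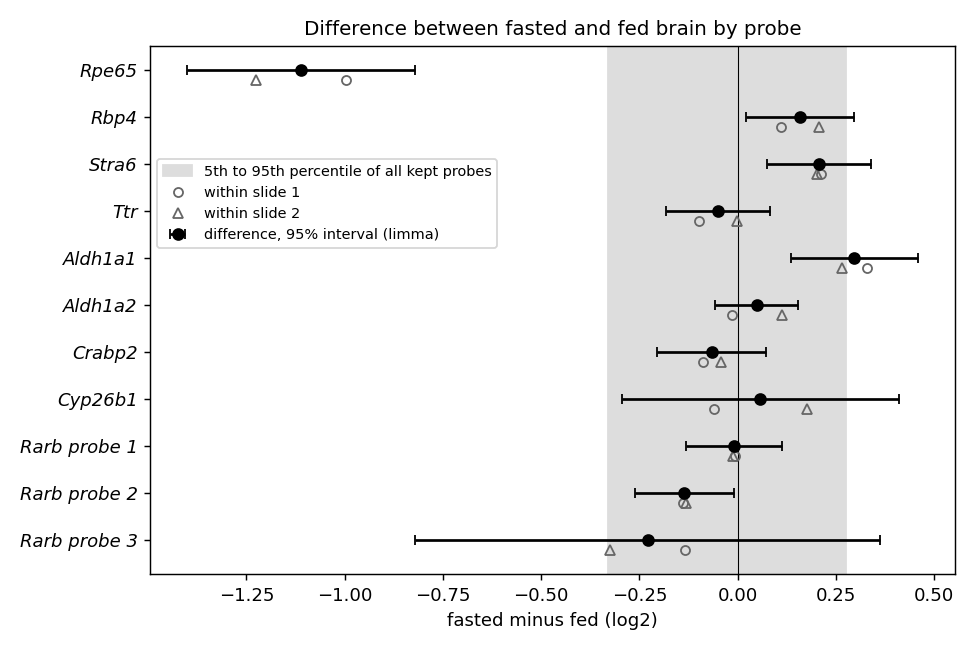
Difference between fasted and fed brain (log2) for each of the 11 probes, with the 95% interval from limma, the differences within each slide as open symbols, and the range from the 5th to the 95th percentile of all 26066 probes tested in grey (-0.33 to 0.28). Rpe65, at -1.11, lies far to the left of that range, Aldh1a1, at 0.30, just beyond its right edge, and the others inside it.

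The slides on which arrays were run were not used to choose the members and could be tested. Each of the 2 slides carried 2 fasted and 2 fed arrays. With group and slide in the fit, 0 of the 11 probes differed between slides in limma (adjusted p from 0.417 to 0.975, differences from -0.44 to 0.11), where 0.844% of all probes tested passed at an adjusted p of 0.05. Of the 11, 0 had an unadjusted p under 0.05. With the normexp correction 1 passed, Crabp2, at an adjusted p of 0.0302. Positions 1 and 3 of both slides held fasted RNA and positions 2 and 4 held fed RNA, and position and fasting cannot be told apart.

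The rest of the retinoid pathway was read from a list of 76 further genes drawn up by role, of which 55 were measured and 21 were below the filter. Of the 55, 2 rose and 6 fell in limma, with a median difference of -0.03, where 18.4% of all 15995 genes passed (9.46% higher and 8.96% lower) with a median of -0.01. With the replicate number as a block 1 rose and 8 fell. Retinaldehyde dehydrogenase 3 (Aldh1a3), Cyp26a1, Lrat and the retinol-carrier receptor Lrp2 were among those below the filter.

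Of 10 measured carriers and uptake proteins 2 fell and 0 rose, with a median of -0.19. Rlbp1 was 1.33-fold lower in fasted brain, with scaled log2 signals of -1.24 ± 0.08 and -0.83 ± 0.09 (SD, n = 4 each; limma adjusted p = 0.00408). Fabp5, which can deliver retinoic acid to another nuclear receptor, was 1.14-fold lower (adjusted p = 0.0116). The cellular carrier Crabp1 gave -0.19 ± 0.08 (SE; limma adjusted p = 0.151). Rbp2, the intestinal carrier, was well above background on 2 of 4 fasted and 4 of 4 fed arrays, so that its fitted difference of -0.51 lies near the limit of the array. It did not pass (adjusted p = 0.0949 in limma) but was among the 8 that fell with the replicate block (0.0306).

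Of 13 retinol and retinal oxidoreductases 1 rose, Adh5, a broadly expressed alcohol dehydrogenase, by 0.16 ± 0.04 (SE; limma adjusted p = 0.0271, and 0.0660 with the replicate block). It kept its call under 8 of 17 alternatives. Rdh10, which makes retinal from retinol, and Dhrs3, which turns it back, gave -0.06 and 0.02 with adjusted p of 0.302 and 0.802. Among 4 measured dehydrogenases and hydroxylases, Cyp1b1, a cytochrome that can oxidise retinol, rose 1.41-fold (0.50 ± 0.10, SE; adjusted p = 0.0126) and Aldh1a7 fell. Cyp1b1 differed by 0.68 on slide 1 and 0.31 on slide 2, and Aldh1a7 kept its call under 7 of 17 alternatives.

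Among 12 receptors and coregulators 2 fell and 0 rose. Rxrg, the partner receptor found in striatum, fell from 1.70 ± 0.03 in fed to 1.48 ± 0.06 in fasted brain (SD, n = 4 each; limma adjusted p = 0.00797), although another probe of the gene gave -0.10 with an adjusted p of 0.121. The coactivator Ncoa3 fell by 0.16, and not with median scaling or the normexp correction. Rara gave -0.13 ± 0.04 (SE), just short of the threshold (adjusted p = 0.0505), and 0.00 on another probe. Rarg and Rxrb gave 0.08 and 0.01, with adjusted p of 0.243 and 0.938. Rxra gave -0.32 ± 0.23 (adjusted p = 0.378) but passed with the replicate block (0.0339) and with slide as a block (0.0180).

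Among 10 measured genes known to be induced by retinoic acid 1 fell and 0 rose. That gene, Rarres2, which encodes the secreted chemoattractant chemerin, was 1.19-fold lower in fasted brain (adjusted p = 0.00828 in limma, 0.0329 with the replicate block). Esterification and carotenoid cleavage genes, 3 of 6 measured, and other visual cycle genes, 3 of 5 measured, had 0 members past the threshold.

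**Figure D3:**
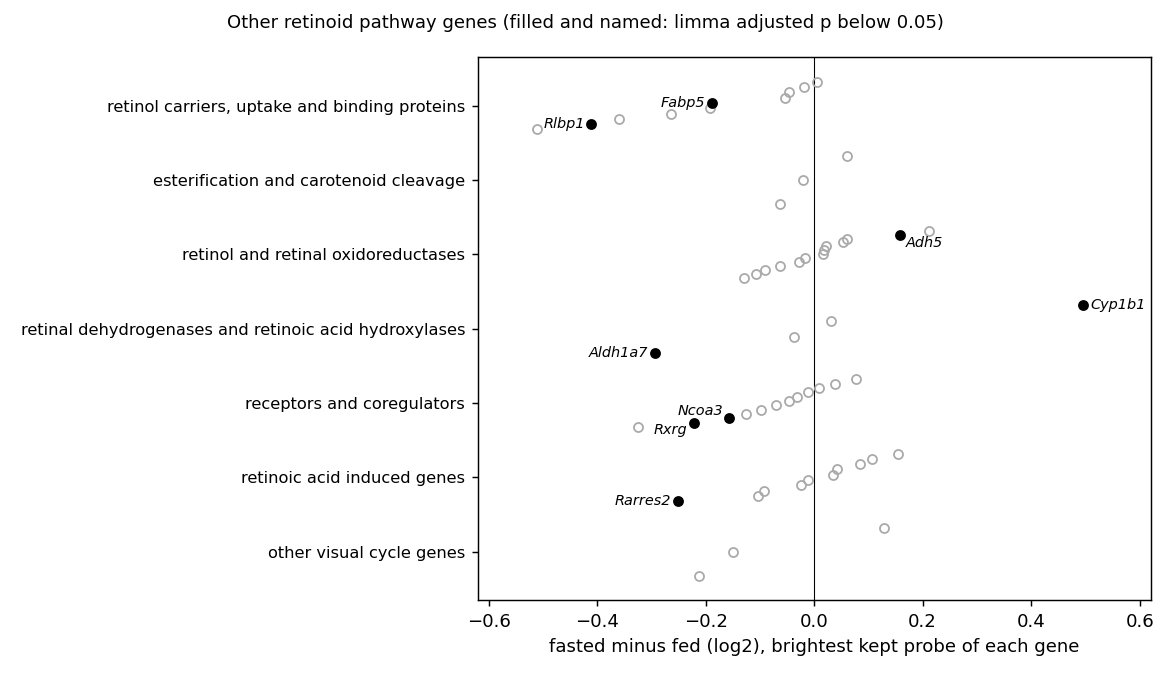
Difference between fasted and fed brain (log2) of the 55 measured retinoid pathway genes outside the set, grouped by role, 1 point per gene read from its brightest kept probe. Filled points with names passed the limma threshold: Cyp1b1 and Adh5 to the right of 0, and Rlbp1, Aldh1a7, Rarres2, Rxrg, Fabp5 and Ncoa3 to the left.

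**Figure D4:**
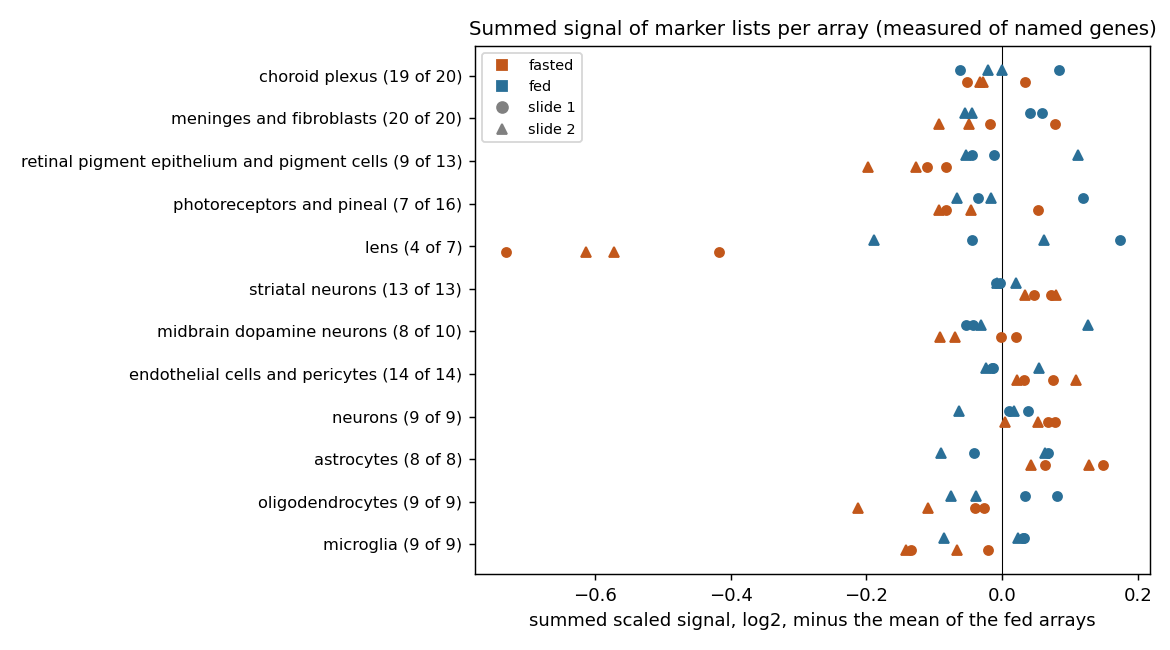
Summed linear signal of the measured genes of each marker list on each array, as log2 minus the mean of the 4 fed arrays, with fasted arrays in orange and fed arrays in blue. The sums of the lens and pigment epithelium lists are lower on all fasted arrays, and the striatal sum is higher. Those of the choroid plexus and meningeal lists overlap between the groups. Each sum weighs the brightest genes of its list most.

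Likeness between arrays of a group was described for each member as the Pearson r, over the 8 arrays, of values from which the group mean had been taken. For Rpe65 the closest genes were Gm2102 (r = 0.99), Mccc1 (0.99) and Gm3527 (0.98), for Ttr they were Col14a1 (0.99), Slc16a4 (0.98) and L3mbtl2 (0.98), and for Cyp26b1 they were Tmem164 (0.99), Psma5 (0.98) and Osbpl7 (0.98). Those of Rbp4 were Golga3, Cdc34 and Fry, those of Stra6 were Polr2f, Rras and Akr7a5, and those of Aldh1a1 were Ttll5, Arhgap12 and Slc18a3. For Aldh1a2, Crabp2 and Rarb they were Slc16a3, Tnfrsf8 and Cd37, then Dync1li1, Nfkbib and Atcay, then Ctsz, Mtfp1 and Nedd9. Across the members r was 0.94 to 0.99, each among the highest of 15985 genes over only 8 arrays, which share slides and scaling.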

How the data were processed

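RNA of 8 brain samples was read on single-colour Agilent arrays with probes placed on mm9, per the file headers. The deposited scanner files hold a processed signal per spot, an intensity from which the scanner software had subtracted background (Feature Extraction 11.0.1.1 per the file headers, 10.10.1.1 per the submitters' processing notes). The authors' deposited value table holds a linear ratio of each spot's signal to a fixed value of its array, and served as an alternative; the median of its columns was, in order of replicate number, 0.970, 0.993, 0.973 and 0.987 in the fasted group and 0.987, 1.02, 0.991 and 1.02 in the fed group. The log2 differences of these ratios follow those of the scanner intensity, while the authors' scaling step is not given in the sources used here. With the ratios 4416 probes passed in limma, against 4417 in the main fit. The median difference over all kept probes was -0.0131 with them, against -0.0130. This alternative nearly repeats the main fit. It is counted among the alternatives but is no separate check of a call.

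Here log2 intensity was taken minus each array's 75th percentile (1651 to 1944), spots of a probe were averaged without control and outlier-flagged spots (128 to 217 per array), and probes were kept when well above background in at least 0.5 of their spots on 4 or more arrays. Of 39429 probes 26066 were kept, 27427 of all were named through RefSeq (GRCm38.p6), and a gene was read from its brightest kept probe. Groups were compared with limma 3.58.1 (R 4.3.3) over all kept probes, with Benjamini-Hochberg adjustment and a threshold of 0.05. The procedure was run on simulated data with independent noise on each array. Those data lacked the deviations that real arrays of a slide share, so they do not check the calls in that respect. The number of arrays limits the precision.

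Members and gene lists were chosen with earlier results of these data known. Text names all members, up to 6 pathway genes that rose and 6 that fell by smallest p, key pathway enzymes, carriers and receptors whether they passed or not, the 3 genes closest to each member, and of each marker list the brightest 4 and the 3 of smallest p; Rbp2, Tyrp1, Pmel and other genes outside this were named after their values were seen. Some genes that this rule names are not reported here. Same-numbered fasted and fed arrays deviated together (r = 0.179, 0.284, 0.291 and 0.180 for numbers 1 to 4) and lay side by side on a slide, so a fit with replicate number as a block was also made. Arrays of different number on the same slide also gave positive r (0.05 to 0.27). Pairs from different slides gave negative r (-0.39 to -0.10). Whether replicate number stands for a pairing of samples beyond the slide was not tested. Alternatives changed background correction, scaling, filter, flags, value source, blocks, and left out each array; leaving Rlbp1 and Bfsp2 out of their marker lists was chosen after seeing the data.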

Additional observations from a re-analysis of the deposited data

Results flagged for a closer look

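In 5 of 54 groups of 4 arrays examined, 1 array stood apart from the other 3 by more than Dixon's 95% limit for the gap as a share of the range, where chance gives about 1 in 20. Crabp2 was at 0.21 (scaled log2 signal) on fasted replicate 4, against a mean of 0.41 for the other 3 fasted arrays. Rarb probe 3 was at -5.31 on the same array, where it was not well above background, against -4.22. Cyp1b1 was at -2.68 on fed replicate 1, against -2.34. Fabp5 was at 4.06 on fasted replicate 4, against 3.97, and Rara was at 1.25 on fed replicate 3, against 1.17.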

How the results depend on the processing

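In limma 4417 probes and 2946 genes passed, with 3 member probes, and 2 pathway genes that rose and 6 that fell. With the normexp correction 2846 probes, 1915 genes and 1 risen pathway gene passed, and 1 member probe passed the slide test. With no filter 2605 probes, 1730 genes, 1 member probe and 1 risen pathway gene passed, with more probes tested. With the replicate number as a block 1 pathway gene rose and 8 fell; beyond the calls given beside their results, the block changed no call of a member or of a named pathway gene. Among marker lists it also moved the meningeal genes that rose from 2 to 3, the oligodendrocyte genes that fell from 4 to 3 and the neuronal genes that rose from 0 to 1, and in the endothelial list 5 rose with and without it, Vwf in place of Pdgfrb. Leaving out each array gave 2782 to 3788 probes, 1861 to 2543 genes, 1 to 3 member probes, 1 to 2 risen and 5 to 7 fallen pathway genes, and 0 to 0 member probes in the slide test. The lowest counts came without fasted replicate 1 (2782 probes, 1861 genes), and 1 member probe was left without fasted replicate 3, fed replicate 2 or fed replicate 4. Apart from the fits without samples and with no filter, the cause was not tested. The dim probes of Rpe65 and of Rarb probe 3 are limited by signal over background: Rpe65 gave -0.73 with normexp, and Rarb probe 3 could be fitted in 16 of the 17 alternatives.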
